A study of Homo sapiens with 16 samples.

Results

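Human embryonic stem cells in which DSCC1 was silenced were compared with cells in which SEPHS1 was silenced. The members of the comparison were the 3 libraries labelled DSCC1 siRNA and the 3 labelled SEPHS1 siRNA, 6 of the 16 libraries of the series, and no control library entered the test. All came from H9, an established line of human embryonic stem cells. The line used carries EGFP under the REX1 promoter and was grown on Matrigel in mTeSR1 without feeder cells. Both groups received enzymatically made pooled siRNAs (esiRNAs), and both were harvested 72 hours after transfection, so siRNA type and harvest time were shared. The siRNA dose is given for both only as a range of 30 to 50 nM, so a difference of dose within it is not known. The labels describe the replicates of each group as independent biological replicates. The 4 control libraries, 2 with a luciferase siRNA and 2 with a control siRNA, are given only as levels beside the comparison, because their harvest time is not in the labels. The labels name no second esiRNA for either gene, so an effect of the targeted gene and an effect of that pool cannot be told apart.

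DSCC1 is a subunit of the CTF18 clamp loader, the complex that places the sliding clamp PCNA on DNA during replication and that takes part in holding sister chromatids together. SEPHS1 is one of the selenophosphate synthetase family. Its paralogue SEPHS2 makes the selenium donor for selenocysteine, the amino acid that defines selenoproteins, whereas SEPHS1 lacks that activity and is linked to redox balance. The comparison sets the 2 knockdowns side by side at the same time and with the same kind of siRNA.

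The 6 libraries held 21321347 to 25812506 counts each, and 14725 to 16252 genes per library reached 10 counts. Scaled to library size (CPM), 3 counts were worth 0.1162 to 0.1407, a floor that covers counting error only. Counts of the mitochondrial genome made up 33.6, 34.8 and 39.2% of the DSCC1 siRNA libraries and 38.7, 38.9 and 45.5% of the SEPHS1 siRNA libraries. The highest share was that of SEPHS1 replicate 3, which also had the lowest TMM scaling factor, 0.843 against 0.960 to 1.11 in the other libraries. In a principal component analysis of 5303 genes the first component, with 34.4% of the variance, separated the groups. The second, with 26.7%, separated SEPHS1 replicate 1 from SEPHS1 replicate 3. Fold changes also moved with base composition across genes. Among 5297 genes of at least 4 log2 CPM, Spearman's rho of the log2 fold change was 0.31 with GC content and 0.19 with exonic length, which describes genes that share libraries and carries no p. The median log2 fold change went from -0.08 in the 1325 GC-poorest of these genes to 0.11 in the 1324 GC-richest.

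The targeted transcripts were examined first. SEPHS1 (ENSG00000086475, chromosome 10, 13317424 to 13348298, minus strand, GRCh38) stood at 327, 319 and 318 CPM in the DSCC1 siRNA libraries and at 73.2, 45.3 and 49.9 CPM in the SEPHS1 siRNA libraries. The groups lay far apart, and the SEPHS1 siRNA mean was 17.5% of the DSCC1 siRNA mean. The log2 fold change, here and throughout DSCC1 siRNA minus SEPHS1 siRNA, was 2.52 (SE 0.15, adjusted p = 3.07e-08). Every adjusted p is that of the quasi-likelihood test of edgeR, adjusted by the method of Benjamini and Hochberg over 15571 genes, unless another tool is named. In the control libraries SEPHS1 lay between 381 and 440 CPM. DSCC1 (ENSG00000136982, chromosome 8, 119833976 to 119856010, minus strand) was read 13, 24 and 19 times in its own knockdown, and 5, 42 and 56 times in the SEPHS1 siRNA libraries. Those counts correspond to 0.549, 0.855 and 0.800 CPM against 0.226, 1.65 and 3.01 CPM, so the groups overlapped through SEPHS1 replicate 1, the lowest of the 6. Its log2 fold change was -1.14 (SE 1.19, adjusted p = 0.897), and without SEPHS1 replicate 3 it was -0.35. The controls lay between 3.30 and 5.16 CPM, above all 6 libraries. At this depth a difference in the DSCC1 transcript between the 2 knockdowns was not detectable, and this contrast does not check the label of the DSCC1 group.

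At an adjusted p under 0.05, 37 of 15571 tested genes were called, 0.238% of them. Of these, 30 (0.193%) were higher in DSCC1 siRNA cells and 7 (0.045%) were higher in SEPHS1 siRNA cells. In all 37 the 3 libraries of one group lay outside the range of the other 3, which was true of 16.3% of all tested genes. At least 2-fold differences were few, 12 with the higher level in DSCC1 siRNA and 1 with the higher level in SEPHS1 siRNA. DESeq2 called 348 and 207 genes and limma-voom 96 and 46, against 30 and 7 by edgeR. Counts of list members called by these 2 tools, given below, are to be read against their larger totals. DESeq2 called all 30 and 6 of the 7, and limma-voom 29 and all 7. In bulk RNA, fewer cells of a type and less RNA per cell cannot be told apart, which applies to every result below.

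The calls that were kept differed with the library left out. Each of these fits also had fewer samples, and the part of that in the lost calls was not tested. Without DSCC1 replicate 1, 12 and 0 of the 37 were still called, without replicate 2 of that group 3 and 0, and without replicate 3 of that group 9 and 3. Leaving out SEPHS1 replicate 1 kept 22 and 5, SEPHS1 replicate 2 kept 6 and 0, and SEPHS1 replicate 3 kept 26 and 3. Only SEPHS1, INPP5J and NAV1 were called in all 6 of these fits. Every other call was lost without DSCC1 replicate 2, and every other call but those of NLGN3, ZC3H7B and TAGLN was lost without SEPHS1 replicate 2. For the other 34 genes the highest adjusted p in these fits lay between 0.0631 and 0.453. A correction for gene length and GC content, chosen after seeing the data, kept 17 and 2 of the calls. With all 16 libraries in 1 fit, 24 and 3 of the calls were kept. The calls lost there were those of AHNAK, VIM, VGF, FLNC, NECTIN1, CNTNAP2, SLC16A1, MTND2P28, MT-ATP8 and ABL1, with adjusted p between 0.0513 and 0.208.

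**Figure D1:**
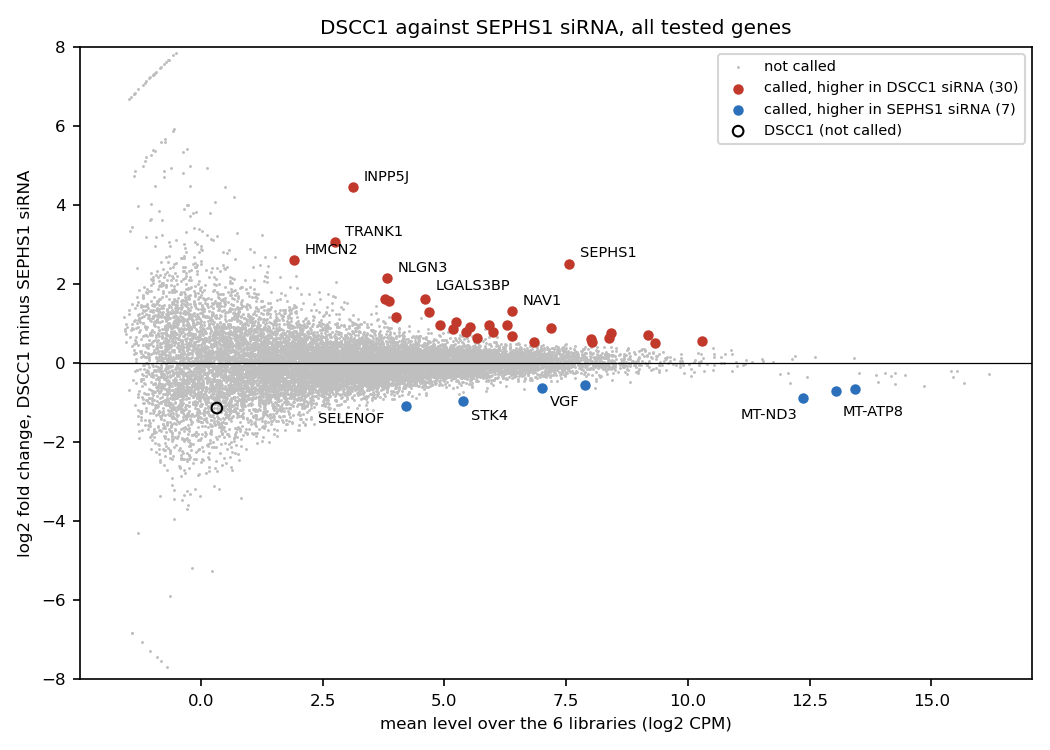
Each point is 1 of 15571 tested genes, with its mean level over the 6 libraries (log2 CPM) on the x axis and its log2 fold change, DSCC1 minus SEPHS1 siRNA, on the y axis. Red points are the 30 genes called higher in DSCC1 siRNA, blue points the 7 called higher in SEPHS1 siRNA, the open circle is DSCC1, and 2 genes lie outside the range of -8 to 8; INPP5J stands highest among the called genes at 4.45.

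The largest difference was that of INPP5J, which encodes a phosphatase that removes the 5-phosphate of phosphoinositides (ENSG00000185133, chromosome 22, 31122731 to 31134696, plus strand). Its levels were 15.8, 15.4 and 18.2 CPM in DSCC1 siRNA and 1.17, 0.629 and 0.430 CPM in SEPHS1 siRNA. The 3 SEPHS1 siRNA libraries held 26, 16 and 8 reads of this gene, against 375, 433 and 433 in the DSCC1 siRNA libraries. The log2 fold change was 4.45 (SE 0.39, adjusted p = 1.17e-05), and the highest adjusted p with any 1 library left out was 0.00226. The controls lay between 10.3 and 15.4 CPM, close to the DSCC1 siRNA libraries. The fold difference of INPP5J was larger than that of SEPHS1, the transcript that the siRNA was directed against.

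TRANK1, which encodes a large protein with tetratricopeptide and ankyrin repeats (chromosome 3, 36826820 to 36945098, minus strand), stood at 13.8, 10.2 and 11.4 CPM in DSCC1 siRNA and at 0.678, 1.06 and 2.53 CPM in SEPHS1 siRNA. The groups did not overlap, although the SEPHS1 siRNA libraries spread widely among themselves. The log2 fold change was 3.07 (SE 0.45, adjusted p = 0.0034), and the highest adjusted p with 1 library left out was 0.0876. HMCN2, the gene of the extracellular matrix protein hemicentin 2, stood at 4.10, 8.27 and 6.53 CPM against 1.04, 0.944 and 1.13 CPM (log2 fold change 2.60, SE 0.52, adjusted p = 0.0445). It is named after its values were seen, since its mean level lay below the 2 log2 CPM required of named genes. Its call was lost in 5 of the 6 fits with 1 library left out, where its adjusted p ran from 0.0482 to 0.453. The HMCN2 call was also lost after the length and GC correction (adjusted p = 0.136).

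Further genes with at least 2-fold higher levels in DSCC1 siRNA came from membrane, nuclear and secreted proteins. LGALS3BP, a secreted glycoprotein that binds galectin-3, stood at 35.2, 37.0 and 38.0 CPM against 6.32, 12.7 and 16.8 CPM (log2 fold change 1.63, SE 0.26, adjusted p = 0.00723). TOX2, a transcription factor of the high mobility group box family, stood at 23.1, 19.3 and 19.5 CPM against 7.32, 8.61 and 4.24 CPM (1.61, SE 0.28, adjusted p = 0.0129). In both genes the DSCC1 siRNA libraries lay close together and the SEPHS1 siRNA libraries were spread out below them. SYNE4, which encodes nesprin-4, an outer nuclear membrane protein that links the nucleus to kinesin, stood at 20.4, 20.3 and 24.6 CPM against 9.67, 6.45 and 5.69 CPM (1.58, SE 0.26, adjusted p = 0.00769). CA14, a carbonic anhydrase of the cell surface, stood at 38.9, 34.7 and 36.3 CPM against 10.9, 15.1 and 18.9 CPM (1.29, SE 0.20, adjusted p = 0.00654). For each of these 4 genes the call was lost without DSCC1 replicate 1, DSCC1 replicate 2, DSCC1 replicate 3 or SEPHS1 replicate 2, with adjusted p up to 0.17 for LGALS3BP, 0.19 for TOX2, 0.142 for SYNE4 and 0.132 for CA14. After the length and GC correction INPP5J, TRANK1, LGALS3BP, TOX2, SYNE4 and CA14 were all still called.

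The next called genes were on no fixed list and are described one by one. NAV1, neuron navigator 1, a protein of growing microtubule ends (ENSG00000134369, chromosome 1, 201622885 to 201826969, plus strand), stood at 115, 112 and 131 CPM in DSCC1 siRNA and at 51.1, 45.0 and 47.1 CPM in SEPHS1 siRNA. The replicates were tight in both groups, and the mean in SEPHS1 siRNA was 40.0% of that in DSCC1 siRNA. The log2 fold change was 1.32 (SE 0.12, adjusted p = 1.29e-05), with at most 0.00263 when 1 library was left out. IPO9-AS1, which overlaps NAV1 exons on the opposite strand, was read at 0.618 and 0.725 CPM on average in the 2 groups.

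NLGN3, neuroligin 3, a synaptic adhesion protein that binds neurexins (chromosome X, 71144831 to 71171201, plus strand), stood at 22.7, 23.5 and 22.9 CPM against 3.30, 6.81 and 5.43 CPM. The mean in SEPHS1 siRNA was 22.5% of that in DSCC1 siRNA (log2 fold change 2.15, SE 0.27, adjusted p = 0.00125, and 0.0631 without DSCC1 replicate 2). CNTNAP2, a neurexin-related adhesion protein of axons, stood at 70.3, 79.8 and 89.6 CPM against 45.5, 36.4 and 41.0 CPM (0.96, SE 0.14, adjusted p = 0.00313). REEP2, which shapes the endoplasmic reticulum, stood at 57.4, 40.2 and 55.2 CPM against 19.9, 22.0 and 32.8 CPM (1.03, SE 0.19, adjusted p = 0.0314). Without DSCC1 replicate 2 or SEPHS1 replicate 2, among others, CNTNAP2 and REEP2 were not called, with adjusted p up to 0.0876 and 0.336. The calls of NAV1, NLGN3 and CNTNAP2 were kept after the length and GC correction, and that of REEP2 was not. With all 16 libraries in 1 fit CNTNAP2 had an adjusted p of 0.0542.

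Another 3 called genes are named after their values were seen. RTN4RL2, a receptor related to the Nogo receptor, differed by 0.86 on the log2 scale (SE 0.17, adjusted p = 0.0405). NECTIN1, an adhesion molecule of adherens junctions, had 0.53 (SE 0.09, adjusted p = 0.0165), and the tyrosine kinase gene ABL1 had 0.54 (SE 0.10, adjusted p = 0.0405). All 3 calls were lost after the length and GC correction (adjusted p = 0.215, 0.233 and 0.302). The RTN4RL2 call was also lost whichever library was left out, with adjusted p up to 0.341. None of these called genes was on the list of neuron markers. Of 20 tested neuron markers edgeR called none in either direction. At an unadjusted p under 0.05 there were 0 and 1, 5.0% of them against 9.39% of all tested genes. DESeq2 called 0 and 1 and limma-voom none, and the median log2 fold change of the markers was 0.00. Their summed level was 668.3 to 694.2 CPM in DSCC1 siRNA and 670.9 to 676.3 CPM in SEPHS1 siRNA. GAP43, a growth cone protein on that list, stood at 13.6, 11.6 and 10.1 CPM against 21.9, 18.4 and 16.9 CPM (-0.70, SE 0.23, adjusted p = 0.282), and the defining marker STMN2 was too low to be tested.

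Genes of the actin cytoskeleton and smooth muscle type contraction formed the list with the most called members. These proteins build stress fibres, and many of their genes are textbook targets of serum response factor (SRF), which binds the CArG box and is held inactive when its cofactors are bound to free actin. Of 18 tested members of 19, 3 were called higher in DSCC1 siRNA (TAGLN, CNN1 and ACTC1) and none was called higher in SEPHS1 siRNA. Among all tested genes 0.193% and 0.045% were called in those directions. In 10 of the 18 the groups did not overlap, all with DSCC1 siRNA higher, where 9.03% of all tested genes showed that. That share covers tested genes of every level. All lists were chosen with earlier results of these data known, so an excess over such a share is not an independent result. The median log2 fold change of the list was 0.33, against 0.00 over all genes tested. The summed level of the list was 7079.8, 7521.6 and 7845.8 CPM in DSCC1 siRNA, 5894.4, 6106.8 and 5949.6 CPM in SEPHS1 siRNA, and 6896.6 to 7927.4 CPM in the controls. DESeq2 called 7 members and limma-voom 4, all higher in DSCC1 siRNA. The length and GC correction brought the median to 0.23 and kept the calls of TAGLN and ACTC1.

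The CArG box was searched on both strands in the 250 bases before the RefSeq start of each gene, because it is the element by which SRF is known to act on these genes. Of 27305 promoters in the RefSeq table (GRCh38.p14), 312 held at least one box, 1.14% of them, while 8 of the 15 list members found in the table did, 53.3%. The list is rich in textbook SRF targets, so this share follows from its choice and says nothing about the knockdowns. Of 29 called genes found in the table only ACTC1 held a box, 3.45% of them. Shown are the stretches around the box in 6 of the 8 members, on the coding strand, with the box in capitals. They are the called ACTC1, the actins ACTA1 and ACTG2, FLNA, SRF with its paired boxes, and CNN2 as a member whose groups overlapped, while MYLK and TPM4 are not shown.
ACTC1: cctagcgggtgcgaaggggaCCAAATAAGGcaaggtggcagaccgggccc
ACTA1: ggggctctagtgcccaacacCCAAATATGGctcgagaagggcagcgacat
ACTG2: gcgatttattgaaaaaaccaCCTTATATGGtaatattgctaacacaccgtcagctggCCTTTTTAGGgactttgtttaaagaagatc
FLNA: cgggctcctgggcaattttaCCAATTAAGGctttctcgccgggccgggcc
CNN2: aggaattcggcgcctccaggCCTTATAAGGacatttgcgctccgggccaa
SRF: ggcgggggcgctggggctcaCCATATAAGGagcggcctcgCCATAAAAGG
The stretches lie at chr15:34795629-34795678 (ACTC1, minus strand), chr1:229434162-229434211 (ACTA1, minus), chr2:73892878-73892964 (ACTG2, plus), chrX:154374699-154374748 (FLNA, minus), chr19:1026499-1026548 (CNN2, plus) and chr6:43171219-43171268 (SRF, plus). The first base of the box lay 109 bases before the start in ACTC1, 97 in ACTA1, 94 in FLNA and 89 in CNN2, and ACTG2 and SRF held 2 boxes each. CNN1 and TPM1 were in the table without a box in this window, which says only that these letters are not there, and TAGLN and MYL9 had no entry. A box is a match of letters and not a measured binding site.

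TAGLN, transgelin, an actin-bundling protein of smooth muscle and early mesenchyme (ENSG00000149591, chromosome 11, 117199321 to 117204782, plus strand), stood at 694, 738 and 738 CPM in DSCC1 siRNA and at 403, 478 and 445 CPM in SEPHS1 siRNA. The mean in SEPHS1 siRNA was 61.1% of that in DSCC1 siRNA (log2 fold change 0.71, SE 0.09, adjusted p = 0.00125, and at most 0.0631, without DSCC1 replicate 2). PCSK7 overlaps TAGLN exons on the opposite strand and averaged 16.3 and 16.2 CPM in the 2 groups. ACTC1, the cardiac alpha actin, stood at 721, 783 and 760 CPM against 526, 561 and 503 CPM (0.51, SE 0.08, adjusted p = 0.0102, up to 0.195 with 1 library left out). CNN1, calponin 1, which binds actin and myosin, stood at 61.2, 64.4 and 61.2 CPM against 39.1, 40.9 and 39.8 CPM (0.64, SE 0.13, adjusted p = 0.0445, up to 0.367). The CNN1 call was lost whichever library was left out. In all 3 genes the replicates of each group were close together and the 2 groups stood clear of each other. The controls are given as luciferase replicates 1 and 2, then control siRNA replicates 1 and 2. There TAGLN stood at 877, 675, 845 and 604 CPM, CNN1 at 80.9, 66.6, 72.4 and 58.4 CPM, and ACTC1 at 846, 773, 723 and 646 CPM. All 3 genes were thus higher in replicate 1 than in replicate 2 of each control siRNA.

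Among the members that were not called, the SRF transcript itself stood at 136, 155 and 160 CPM in DSCC1 siRNA and at 111, 124 and 96.4 CPM in SEPHS1 siRNA (log2 fold change 0.44, SE 0.12, adjusted p = 0.155). FLNA, filamin A, a crosslinker of actin filaments, had 0.33 (SE 0.08, adjusted p = 0.0951), TPM1, a tropomyosin, 0.36 (adjusted p = 0.209), and the skeletal actin ACTA1 0.41 (adjusted p = 0.216). ACTG2, smooth muscle gamma actin, with 2 boxes, had 0.34 (adjusted p = 0.457), and the myosin light chain gene MYL9 had 0.23 (adjusted p = 0.407). MYOCD, the SRF cofactor of smooth muscle and heart, had 0.64 with an SE of 0.31. Not every gene with a box stood apart between the groups. CNN2 had 0.08 and TPM4 -0.17, and their groups overlapped. The actin genes are near-identical in their coding sequence, so reads of ACTC1, ACTA1, ACTA2 and ACTG2 may be split or discarded in ways that the sources used here do not give. ACTA2, at 0.421 to 4.25 CPM over the 6 libraries, was too low to read a direction.

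**Figure D2:**
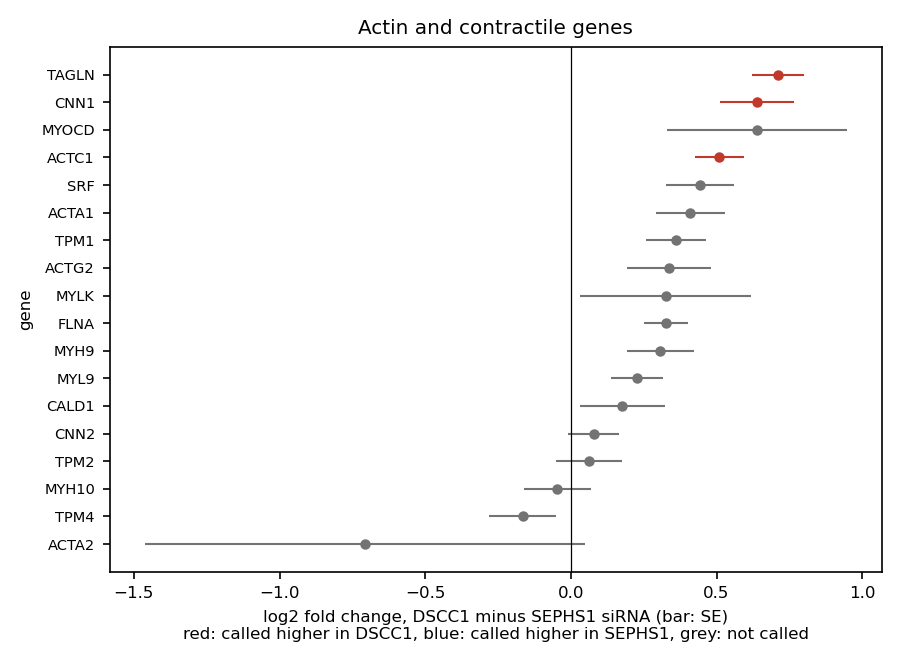
The x axis gives the log2 fold change, DSCC1 minus SEPHS1 siRNA (n = 3 each), with bars of 1 SE, for the 18 tested actin and contractile genes on the y axis. TAGLN, CNN1 and ACTC1 (red) were called, and 15 of the 18 points lie above 0.

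Genes that respond to YAP, the coactivator silenced by the Hippo kinases, gave no call by edgeR. Of 19 tested members, 0 were called and 4 had an unadjusted p under 0.05, all higher in DSCC1 siRNA, where 5.21% of all tested genes had that, and DESeq2 and limma-voom each called 2. The median log2 fold change was 0.22. AXL, a receptor tyrosine kinase, stood at 111, 99.9 and 110 CPM against 57.4, 85.5 and 62.9 CPM (0.64, SE 0.14, adjusted p = 0.078), and CCN1, a matricellular protein, at 179, 176 and 183 CPM against 140, 129 and 130 CPM (0.43, SE 0.10, adjusted p = 0.0904). Neither pair of groups overlapped. CCN2 had 0.30 (adjusted p = 0.451). STK4, which encodes the Hippo kinase MST1 (chromosome 20, 44966474 to 45079959, plus strand), was called in the other direction, at 25.4, 29.4 and 29.1 CPM in DSCC1 siRNA and 57.0, 57.7 and 49.6 CPM in SEPHS1 siRNA. Its mean was 1.96-fold higher in SEPHS1 siRNA (log2 fold change -0.97, SE 0.15, adjusted p = 0.00458), and the call was kept after the length and GC correction. Without DSCC1 replicate 1, DSCC1 replicate 2 or SEPHS1 replicate 2 the STK4 call was lost, with adjusted p of at most 0.0876. The controls lay between 34.2 and 42.6 CPM, between the 2 knockdowns.

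Of the genes on the mesenchyme and basement membrane lists, VIM and LAMA5 were called higher in DSCC1 siRNA, beside TAGLN. VIM, vimentin, the intermediate filament of mesenchymal and embryonic stem cells, stood at 382, 394 and 438 CPM against 281, 268 and 233 CPM (log2 fold change 0.63, SE 0.10, adjusted p = 0.00654, up to 0.132 with 1 library left out). LAMA5, the laminin alpha 5 chain of the embryonic stem cell basement membrane, stood at 291, 330 and 314 CPM against 193, 204 and 212 CPM (0.62, SE 0.10, adjusted p = 0.00597, up to 0.147). ADRM1 overlaps LAMA5 on the opposite strand and had a log2 fold change of 0.03. Called genes on no list were AHNAK, FLNC and COL26A1. AHNAK, a giant scaffold protein beneath the plasma membrane, stood at 27.5, 19.0 and 19.4 CPM against 9.22, 9.56 and 10.9 CPM (1.16, SE 0.23, adjusted p = 0.0454, up to 0.378). Named after their values were seen are FLNC, filamin C (0.79, SE 0.13, adjusted p = 0.00723), and the collagen gene COL26A1 (0.96, SE 0.16, adjusted p = 0.0129). Of these 5 calls only that of VIM was kept after the length and GC correction. With all 16 libraries in 1 fit VIM, AHNAK and FLNC were not called (adjusted p = 0.188, 0.188 and 0.137).

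Of 21 tested mesenchyme markers, 2 were called, TAGLN and VIM, where 0.193% of all tested genes were called in that direction. In 6 of the 21 the groups did not overlap, all with DSCC1 siRNA higher, against 9.03% of all tested genes, and DESeq2 called 4 and 0. The list median was 0.06, with 11 members above and 10 below 0, while the summed level was 4235.4 to 4668.1 CPM in DSCC1 siRNA, 3279.3 to 3627.2 CPM in SEPHS1 siRNA and 3808.0 to 4765.0 CPM in the controls. Of 33 tested basement membrane and adhesion genes 1 was called, LAMA5, where 0.193% of all tested genes were called in that direction. DESeq2 called 4 and 0. The groups did not overlap for 8 with DSCC1 siRNA higher and for 1 with SEPHS1 siRNA higher. Of all tested genes 9.03% and 7.23% showed that. The list median of 0.14 became 0.03 after the length and GC correction, and the summed level was 1948.1 to 2032.4 CPM against 1648.2 to 1674.5 CPM. COL1A1, the main fibrillar collagen chain, had 0.38 (SE 0.09, adjusted p = 0.0868), HSPG2, perlecan, had 0.66 (SE 0.15, adjusted p = 0.0868), and LAMB2 had 0.55 (adjusted p = 0.204). FN1, fibronectin, stood at 161, 130 and 161 CPM against 165, 158 and 165 CPM, with overlapping groups. The control libraries themselves varied in this group of genes, with VIM at 757, 319, 640 and 316 CPM in luciferase replicates 1 and 2 and control siRNA replicates 1 and 2, and AHNAK at 64.7, 22.6, 44.9 and 18.9 CPM. Both genes were thus high in replicate 1 of each control siRNA and low in replicate 2.

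Transcripts of primed embryonic stem cells were present in both groups, with 1 exception. The summed level of 30 primed pluripotency genes was 8279.2 to 8467.2 CPM in DSCC1 siRNA and 7974.7 to 8069.2 CPM in SEPHS1 siRNA. POU5F1 (OCT4), a core factor of pluripotency, stood at 170, 175 and 188 CPM against 207, 201 and 176 CPM, and SOX2, its partner, at 169, 182 and 200 CPM against 181, 198 and 209 CPM. Both overlapped between the groups, with log2 fold changes of -0.13 (SE 0.10, adjusted p = 0.789) and -0.09 (SE 0.10, adjusted p = 0.904). NANOG stood at 64.0, 59.0 and 68.5 CPM against 93.1, 72.1 and 84.8 CPM, without overlap but not called (-0.39, SE 0.13, adjusted p = 0.287). ZFP42, the REX1 gene whose promoter drives the EGFP reporter, was listed at 0 in all 6 libraries. CYP51A1, an enzyme of cholesterol synthesis that growing cells use, was listed at 0 as well, so these zeros are not read as absence of the transcript.

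Of the 29 tested primed pluripotency genes 1 was called, higher in DSCC1 siRNA, where 0.193% of all tested genes were called in that direction. ZSCAN10, a zinc finger factor of embryonic stem cells (ENSG00000130182, chromosome 16, 3088890 to 3099317, minus strand), stood at 417, 402 and 475 CPM in DSCC1 siRNA and at 231, 235 and 297 CPM in SEPHS1 siRNA. The SEPHS1 siRNA mean was 58.9% of the DSCC1 siRNA mean (log2 fold change 0.76, SE 0.11, adjusted p = 0.00313), and the controls lay between 368 and 432 CPM. The call was kept after the length and GC correction and was lost without DSCC1 replicate 2, DSCC1 replicate 3 or SEPHS1 replicate 2, with adjusted p of at most 0.0783. In 13 of the 29 genes the groups did not overlap, 7 with DSCC1 siRNA higher and 6 with SEPHS1 siRNA higher, where 9.03% and 7.23% of all tested genes showed that. Among the first were SALL2 (0.37, SE 0.09, adjusted p = 0.0951), and among the second DPPA4 (-0.36, SE 0.10, adjusted p = 0.155) and L1TD1 (-0.48, SE 0.13, adjusted p = 0.179), the last 2 being genes of the undifferentiated state. The list as a whole had a median log2 fold change of -0.07.

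Apart from the mesenchyme list, with its calls of TAGLN and VIM, marker lists of other cell types gave no call by edgeR. Over 9 lists of naive, neural, germ layer, extraembryonic, neural crest and epithelial genes, 99 of 165 members were high enough to be tested. At an unadjusted p under 0.05 there were 14 higher in DSCC1 siRNA and 4 higher in SEPHS1 siRNA, 18.2% of them against 9.39% of all tested genes. DESeq2 called 7 and 2 and limma-voom 3 and 0. The neuroectoderm list summed to 213.6 to 216.0 CPM in DSCC1 siRNA and 150.02 to 203.5 CPM in SEPHS1 siRNA, and the neural crest list to 84.2 to 105.6 CPM against 59.3 to 71.8 CPM. Most members of these 2 lists were too low to be tested, 16 of 26 and 8 of 14, among them the defining genes PAX6 and TWIST1. ETS1, a transcription factor on the neural crest list that many cell types use, stood at 17.3, 17.1 and 18.6 CPM against 9.49, 6.37 and 3.44 CPM (1.45, SE 0.31, adjusted p = 0.075). Among epithelial genes TJP1, a tight junction scaffold, had 0.44 (SE 0.10, adjusted p = 0.0868) and CDH1, E-cadherin, 0.24 (adjusted p = 0.475). The part of other cell types in the calls above was not tested.

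Selenoprotein transcripts were examined because SEPHS1 belongs to the selenophosphate synthetase family. Selenocysteine is inserted at UGA codons by a dedicated tRNA and a protein that reads an element in the transcript, and some selenoprotein transcripts are known to decay when selenium is scarce. Of 25 selenoprotein genes 20 were tested and 1 was called, higher in SEPHS1 siRNA, where 0.045% of all tested genes were called in that direction. SELENOF, a selenoprotein of the endoplasmic reticulum that binds the glycoprotein folding sensor (chromosome 1, 86862445 to 86914424, minus strand), stood at 8.96, 12.9 and 13.3 CPM in DSCC1 siRNA and at 24.6, 23.1 and 27.3 CPM in SEPHS1 siRNA. Its mean was 2.13-fold higher in SEPHS1 siRNA (log2 fold change -1.09, SE 0.22, adjusted p = 0.0465), the only gene called at least 2-fold higher there. Its call was lost with any 1 library left out, at an adjusted p of 0.101 to 0.351, and after the length and GC correction. The controls lay between 12.7 and 17.9 CPM, below every SEPHS1 siRNA library.

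The other selenoproteins lay on both sides of 0. The median log2 fold change of the 20 was 0.05, with 13 above and 7 below 0. SELENOT, a thioredoxin-like protein of the endoplasmic reticulum, had -0.56 (SE 0.25, adjusted p = 0.48) with groups that did not overlap, in the direction of SELENOF. GPX1, the cytosolic glutathione peroxidase whose transcript is known as sensitive to selenium supply, stood at 269, 258 and 252 CPM against 194, 227 and 235 CPM (0.25, SE 0.10, adjusted p = 0.426). SELENOW, a small selenoprotein of similar known sensitivity, stood at 124, 116 and 120 CPM against 92.2, 94.6 and 109 CPM (0.28, SE 0.11, adjusted p = 0.396). Both stood higher in all 3 DSCC1 siRNA libraries than in any SEPHS1 siRNA library without reaching the threshold. TXNRD1, cytosolic thioredoxin reductase, overlapped between the groups (-0.37, SE 0.18, adjusted p = 0.546).

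Of the 12 genes of selenocysteine synthesis and insertion only SEPHS1 itself was called. SEPHS2, the paralogue that makes selenophosphate, stood at 7.69, 6.70 and 7.16 CPM against 2.76, 7.04 and 6.12 CPM, overlapping between the groups (0.44, SE 0.38, adjusted p = 0.851). SEPSECS, the enzyme that turns the phosphorylated serine on the tRNA into selenocysteine, was near the floor in DSCC1 siRNA, at 0.591, 1.71 and 0.0842 CPM against 2.03, 1.89 and 2.04 CPM (-1.31, SE 1.09, adjusted p = 0.827). The redox genes of the NRF2 response gave no edgeR call among 25 tested. At an unadjusted p under 0.05 there were 2 and 1, 12.0% of them against 9.39% of all tested genes. DESeq2 called 1 and 0 and limma-voom none.

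**Figure D3:**
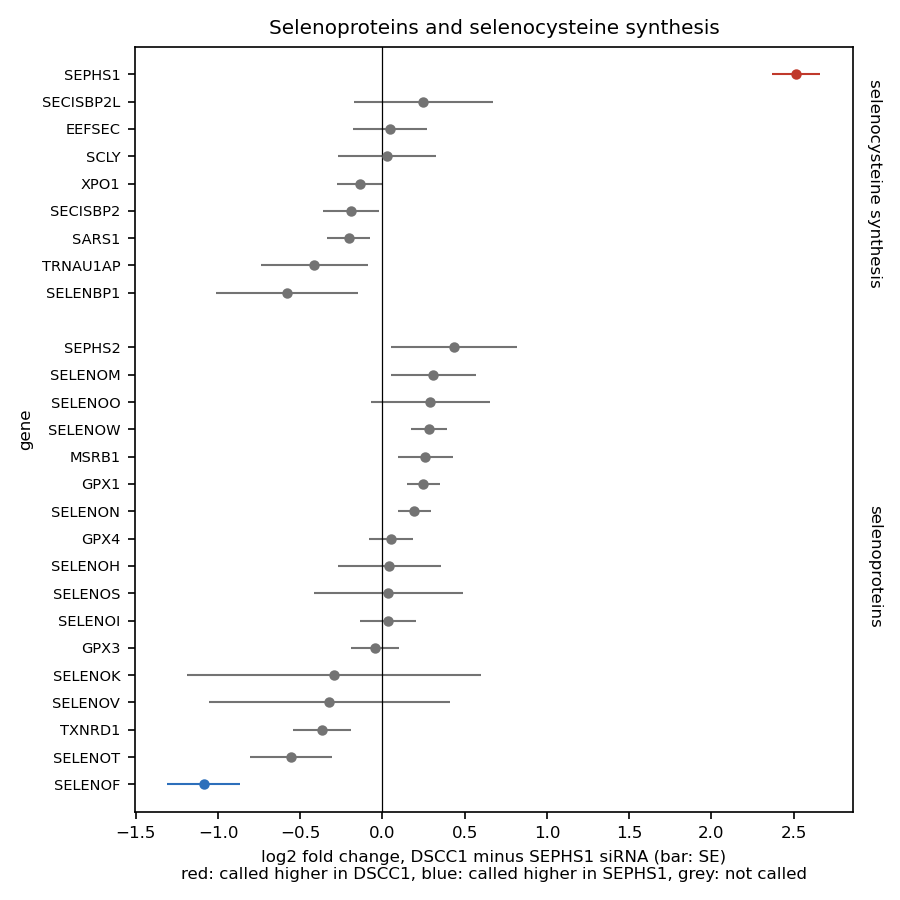
The x axis gives the log2 fold change, DSCC1 minus SEPHS1 siRNA (n = 3 each), with bars of 1 SE, for genes of selenocysteine synthesis (upper block) and selenoproteins (lower block); genes with an SE above 1 are left out, 3 of the second list and 2 of the first. SEPHS1 (red) stands alone at 2.52, SELENOF (blue) lies lowest at -1.09, and the grey genes between them were not called.

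Transcripts of the mitochondrial genome were the main group on the SEPHS1 siRNA side. The 13 proteins encoded there are core subunits of the respiratory chain and of ATP synthase, and their mRNAs are cut from long precursor transcripts. All 12 tested members had a log2 fold change below 0, with a median of -0.34. Of these, 2 were called, MT-ND3 and MT-ATP8, where 0.045% of all tested genes were called in that direction. At an unadjusted p under 0.05 there were 9 of the 12, against 4.18% of all tested genes in that direction, and limma-voom called 7 and DESeq2 1. The genes share their precursors and are not separate measurements. Their counts are part of the mitochondrial share of each library, so their sum moves with it by construction. SEPHS1 replicate 3, with the highest share, was also the highest library for each gene named here. Without that library the list median was -0.17. The mitochondrial share is no separate measurement of these genes, and the cause of the differences was not tested.

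MT-ND3, a subunit of respiratory complex I, stood at 3285, 3442 and 4312 CPM in DSCC1 siRNA and at 4927, 6223 and 9278 CPM in SEPHS1 siRNA (log2 fold change -0.89, SE 0.16, adjusted p = 0.0165). Without SEPHS1 replicate 3 it was -0.60, with an adjusted p that stayed under the threshold, whereas leaving out DSCC1 replicate 1, DSCC1 replicate 2, DSCC1 replicate 3 or SEPHS1 replicate 2 lost the call (adjusted p up to 0.402), and DESeq2 gave 0.0596. MT-ATP8, a small subunit of ATP synthase, stood at 5286, 5933 and 7884 CPM against 8620, 9307 and 13479 CPM (-0.72, SE 0.14, adjusted p = 0.0445). Without SEPHS1 replicate 3 it was -0.49 and was not called, nor was it without DSCC1 replicate 1, DSCC1 replicate 2 or SEPHS1 replicate 2 (adjusted p up to 0.453). MT-ATP8 overlaps MT-ATP6 on the same strand, and MT-ATP6 had -0.50 (SE 0.13, adjusted p = 0.132). At the other end MT-CO1, a subunit of complex IV, had -0.21 (SE 0.11, adjusted p = 0.584), with overlapping groups.

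MTND2P28, an annotated pseudogene on chromosome 1 (629640 to 630683) that is a nuclear copy of MT-ND2, was called as well (-0.65, SE 0.13, adjusted p = 0.0405). It stood at 7618, 7769 and 10300.1 CPM against 11765, 11671 and 16940.1 CPM, and MT-ND2 itself had -0.58 (SE 0.13, adjusted p = 0.0874), so reads of the 2 copies may have been shared between them. Without SEPHS1 replicate 3 the pseudogene had -0.45 and was not called. None of these 3 calls was kept after the length and GC correction, which left MT-ND3 at -0.58 and MT-ATP8 at -0.37. All 4 controls lay below every library of both knockdowns for MT-ND3, at 1909 to 2630 CPM. Nuclear genes of the respiratory chain gave no edgeR call among 31 tested, and their median was -0.09. At an unadjusted p under 0.05 there were 0 and 3, 9.68% of them against 9.39% of all tested genes. DESeq2 called 0 and 1 and limma-voom none. UQCRFS1, the Rieske protein of complex III, had -0.42 (SE 0.14, adjusted p = 0.281).

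**Figure D4:**
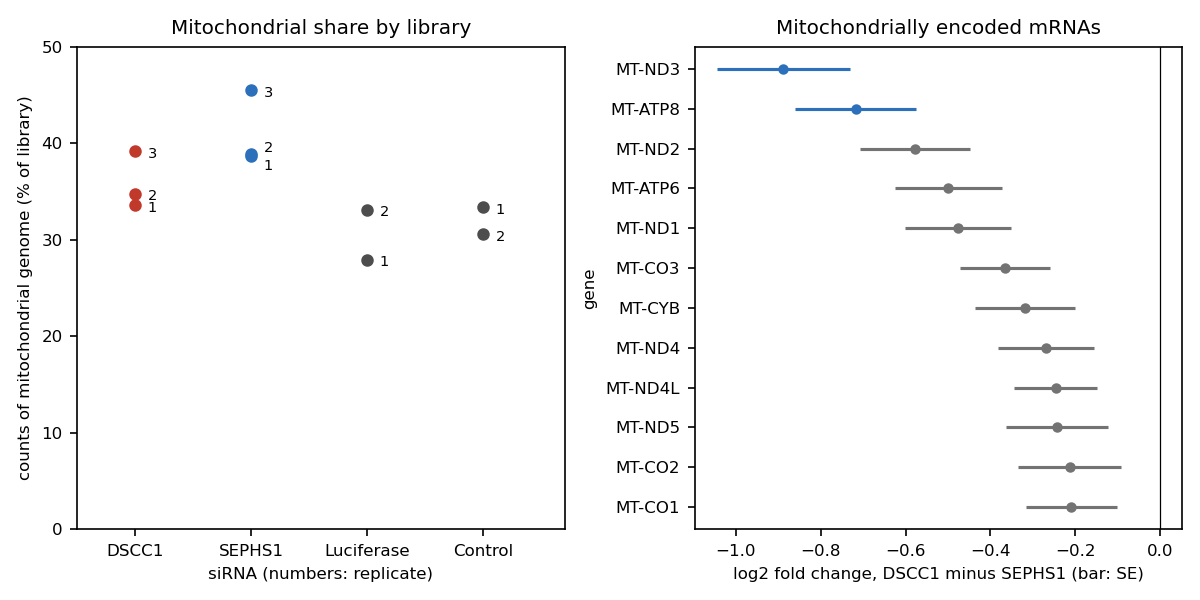
Left, the share of counts from the mitochondrial genome (% of each library, y axis) by siRNA, with the replicate number beside each point; SEPHS1 replicate 3 is highest at 45.5%, and the DSCC1 and SEPHS1 siRNA ranges overlap. Right, the log2 fold change of the 12 tested mitochondrial mRNAs, DSCC1 minus SEPHS1 siRNA (n = 3 each), with bars of 1 SE; blue marks the called MT-ND3 and MT-ATP8, and all points lie below 0.

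Cytosolic ribosomal protein genes gave no call by edgeR among 76 tested. In 63 of the 76 the log2 fold change was below 0, with a median of -0.16, and of -0.10 after the length and GC correction. At an unadjusted p under 0.05 there were 0 and 17, 22.4% of the list against 4.18% of all tested genes in that direction, DESeq2 called 0 and 12, and limma-voom 0 and 5. RPS13 stood at 117, 137 and 115 CPM against 176, 159 and 173 CPM (-0.46, SE 0.11, adjusted p = 0.0951), and RPS20 and RPS23 had -0.46 and -0.44 (adjusted p = 0.125 and 0.16). The summed level of the list overlapped between the groups, at 25452.3 to 27123.2 CPM against 25519.6 to 28423.4 CPM. Ribosomal protein genes have many processed pseudogenes, and how reads shared with them were counted is not given in the sources used here.

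SLC7A5, on the lists of amino acid transporters and of ATF4 targets, was the 1 called gene of the 25 tested amino acid transport genes. Among all tested genes 0.193% were called higher in DSCC1 siRNA, as it was. SLC7A5 encodes LAT1, the carrier of large neutral amino acids (chromosome 16, 87830023 to 87869488, minus strand). It stood at 1447, 1444 and 1577 CPM in DSCC1 siRNA and at 1002, 1001 and 1011 CPM in SEPHS1 siRNA. The SEPHS1 siRNA libraries lay close together, and the log2 fold change was 0.57 (SE 0.08, adjusted p = 0.00219, up to 0.0669 without DSCC1 replicate 2 or SEPHS1 replicate 2). The call was kept after the length and GC correction. Its heavy chain partner SLC3A2 stood at 245, 246 and 253 CPM against 194, 199 and 205 CPM (0.32, SE 0.09, adjusted p = 0.223). SLC16A1, the lactate and pyruvate transporter MCT1, was on no list and was called higher in SEPHS1 siRNA, at 174, 216 and 187 CPM against 316, 265 and 263 CPM (-0.55, SE 0.11, adjusted p = 0.0454, up to 0.354 with 1 library left out). The SLC16A1 call was lost after the length and GC correction (adjusted p = 0.0789). SLC7A5 and SLC3A2 are targets of ATF4, the factor of the amino acid and stress response. Of 32 tested genes of that list 1 was called, SLC7A5, against the same 0.193% of all tested genes, and the median was -0.08. CHAC1, a glutathione-degrading ATF4 target, stood at 13.4, 9.58 and 8.50 CPM against 23.0, 15.3 and 20.4 CPM (-0.90, SE 0.25, adjusted p = 0.197), and PSAT1 of serine synthesis had -0.34 (adjusted p = 0.3).

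VGF, the precursor of secreted neuroendocrine peptides, was the last gene called higher in SEPHS1 siRNA. It stood at 95.0, 100.5 and 107 CPM against 146, 144 and 177 CPM (log2 fold change -0.62, SE 0.11, adjusted p = 0.0222, up to 0.289 with 1 library left out). The call was kept after the length and GC correction and lost with all 16 libraries in 1 fit (adjusted p = 0.208). The remaining calls were higher in DSCC1 siRNA. ZDHHC8, a palmitoyltransferase of the Golgi, stood at 87.5, 101 and 118 CPM against 51.8, 50.5 and 56.7 CPM (0.95, SE 0.13, adjusted p = 0.00219), and ZC3H7B, a zinc finger protein that binds RNA, at 184, 171 and 212 CPM against 92.5, 120 and 92.7 CPM (0.89, SE 0.12, adjusted p = 0.00219). Both were kept after the length and GC correction, and both lost their call without DSCC1 replicate 2, as did ZDHHC8 without SEPHS1 replicate 2 (adjusted p of at most 0.0757 for ZDHHC8 and 0.0631 for ZC3H7B). Named after their values were seen are MGAT4B, a branching enzyme of N-glycans (0.91, adjusted p = 0.0132), the tumour necrosis factor receptor gene TNFRSF1A (0.79, adjusted p = 0.0405) and MLXIP, the glucose-responsive factor MondoA (0.69, adjusted p = 0.0405). These 3 calls were lost after the length and GC correction (adjusted p = 0.0595, 0.0595 and 0.265). The MLXIP call was also lost whichever library was left out.

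Lists of genome maintenance genes, clamp loaders and cohesion genes among them, gave no call by edgeR. Over 5 lists of clamp loaders, cohesion, replication, mitosis and homologous recombination, 156 genes were tested and edgeR called none, where it called 0.238% of all tested genes. At an unadjusted p under 0.05 there were 3 higher in DSCC1 siRNA and 11 higher in SEPHS1 siRNA, 8.97% of them against 9.39% of all tested genes, and DESeq2 called 2 and 5 and limma-voom none. The median log2 fold change was 0.01. Cohesin subunits and loaders gave values from -0.85 to 0.40 over 25 tested genes, among them PTTG1, securin, with -0.38 (SE 0.13, adjusted p = 0.332) and groups that did not overlap. In replication, MCM10, which helps to start the replication fork, stood at 40.9, 41.4 and 34.9 CPM against 22.9, 28.1 and 18.7 CPM (0.75, SE 0.18, adjusted p = 0.102). The nucleotide synthesis genes TYMS and RRM1 lay the other way, at -0.76 (SE 0.19, adjusted p = 0.142) and -0.54 (SE 0.14, adjusted p = 0.169). CCNB2 and AURKA, regulators of mitosis, had -0.53 and -0.33 (adjusted p = 0.269 and 0.408).

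The p53 and apoptosis lists gave no edgeR call among 55 tested genes. At an unadjusted p under 0.05 there were 2 and 1, 5.45% of them against 9.39% of all tested genes. DESeq2 called 2 and 1 and limma-voom 1 and 0. BOK, a death-promoting member of the BCL2 family, came closest, at 73.7, 73.8 and 73.2 CPM in DSCC1 siRNA against 48.4, 46.7 and 27.0 CPM in SEPHS1 siRNA (log2 fold change 0.85, SE 0.17, adjusted p = 0.0531). Among p53 targets CCNG1, an atypical cyclin, had -0.78 (SE 0.20, adjusted p = 0.153). Signalling lists (NODAL and TGF-beta, WNT, BMP, FGF, NOTCH, YAP and immediate early genes) gave no call among 133 genes, with 17 and 8 at an unadjusted p under 0.05 (18.8% against 9.39% of all tested genes), 8 and 5 by DESeq2 and 2 and 0 by limma-voom. HES1, a NOTCH target, stood at 11.3, 10.7 and 10.6 CPM in DSCC1 siRNA and between 16.7 and 24.1 CPM in SEPHS1 siRNA (-0.90, SE 0.23, adjusted p = 0.131). Interferon, RNA interference and chromatin lists gave no call among 64 genes. At an unadjusted p under 0.05 there were 2 and 3 (7.81% against 9.39%), with 1 and 2 by DESeq2 and 1 and 1 by limma-voom. MOV10, an RNA helicase of silencing complexes, had 0.57 (SE 0.14, adjusted p = 0.131) and RNF2, the ubiquitin ligase of Polycomb complex 1, -0.82 (SE 0.18, adjusted p = 0.0868). The lists of protein folding stress, NRF2, cholesterol synthesis, glycolysis and nuclear respiratory genes gave no call among 137, with 10 and 12 at an unadjusted p under 0.05 (16.1% against 9.39%), 4 and 5 by DESeq2 and 3 and 2 by limma-voom, and MSMO1 of cholesterol synthesis had -0.43 (SE 0.11, adjusted p = 0.131).

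Levels in the control libraries showed where the called genes stood in cells without either knockdown, as a description with no test, since the genes were chosen by these knockdown libraries. For all 30 genes higher in DSCC1 siRNA, the 4 controls lay above every SEPHS1 siRNA library. For 3 of the 30 the controls also lay below every DSCC1 siRNA library, and for 1 they lay above every one. For all 7 genes higher in SEPHS1 siRNA the 4 controls lay below every SEPHS1 siRNA library, and against the DSCC1 siRNA libraries they lay below for 3 and above for 1. The ranges of the DSCC1 siRNA and control libraries overlapped for 26 of the 30 genes and 3 of the 7. In these levels a difference of harvest time and one of siRNA cannot be told apart.

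**Figure D5:**
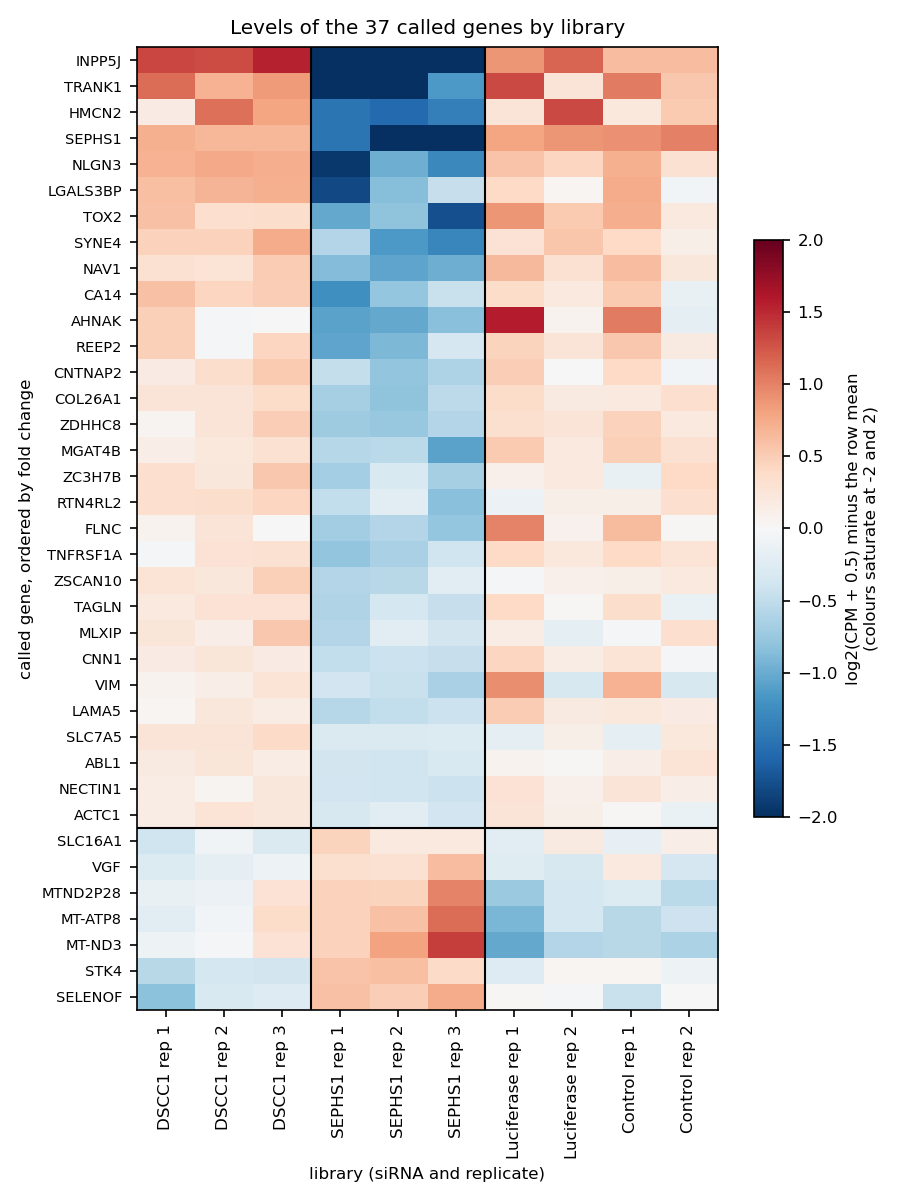
Rows are the 37 called genes in order of fold change and columns are libraries (3 DSCC1 siRNA, 3 SEPHS1 siRNA, 2 luciferase, 2 control siRNA), coloured by log2(CPM + 0.5) minus the row mean, with colours saturating at -2 and 2. The SEPHS1 siRNA columns are blue for the 30 upper genes and red for the 7 lower ones, and INPP5J, TRANK1 and SEPHS1 reach the end of the scale there.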

How the data were processed

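The authors deposited 1 table of raw counts per Ensembl gene for 16 libraries of polyadenylated RNA, prepared with Lexogen's SENSE chemistry and sequenced from 1 end, per the labels' protocols. The submitters' processing notes list STAR 2.4.0.1, HTSeq 0.9.1 and the build GRCh38. Annotation release, strand setting and the handling of reads shared between gene copies are not given in the sources used here. The protocols name both a harvest at 72 hours and a longer culture, and the former was used. Gene symbols were taken for 56558 of 60675 identifiers from a name table and for 497 from GENCODE release 29, the source of positions and exonic lengths.

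The counts of the 6 libraries were filtered with filterByExpr (15571 genes kept, 45104 left out), scaled by TMM and tested in R 4.3.3 by the quasi-likelihood method of edgeR 4.0.16, with group as the only term and 4 residual degrees of freedom. The common dispersion was 0.2125. A call is a Benjamini-Hochberg adjusted p under 0.05. Each SE was obtained as the absolute log2 fold change over the square root of F. Levels are TMM-scaled CPM, with n = 3 per group, and control levels come from a scaling of all 16 libraries. Reads carry no molecular identifiers. The pipeline was run on simulated data, and the share of true differences that it recovered is not reported here. No 2 libraries were near-identical.

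Named genes were the 2 targets, the 12 largest fold changes and the 6 further smallest p per direction among called genes of at least 2 log2 CPM with groups apart, and the 3 smallest p per list. Genes outside this rule are marked or are examples from the 41 lists (1013 genes), chosen after their values were seen. The members and the lists were chosen with earlier results of these data known. Not every gene the rule selects is reported. Alternatives were other scalings within edgeR (DESeq2 size factors, upper quartile), no filter, a stricter filter (1 CPM in 3 libraries), all 16 libraries in 1 fit, a replicate block, DESeq2 1.42.0, limma-voom (limma 3.58.1) with quality weights, a 1.5-fold minimum and leaving out each library. Added after seeing the data were a fit without mitochondrial genes and one corrected for length and GC content. CArG boxes were searched in RefSeq promoters.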

Additional observations from a re-analysis of the deposited data

How the results depend on the processing

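Calls higher in DSCC1 siRNA (30) and in SEPHS1 siRNA (7) numbered 5 and 0 with a 1.5-fold minimum, 47 and 6 with all 16 libraries in 1 fit (24 and 3 of the calls kept), 96 and 46 with limma-voom, 121 and 43 without a filter on low counts and 348 and 207 with DESeq2. Both other scalings in edgeR gave 30 and 7, and the stricter filter 30 and 8. With the correction for length and GC, chosen after seeing the data, they were 17 and 2, and without mitochondrial genes, likewise chosen later, 34 and 8. Leaving out 1 library gave 3 to 36 and 0 to 8. The causes were not tested, and leaving out 1 library also lowered the number of samples. Whether the replicate numbers pair the libraries was not settled. Deviations of same-numbered libraries correlated at 0.0566, 0.0246 and 0.168, and those of differently numbered libraries at -0.113 to 0.0653. A replicate block gave 147 and 62 calls, among them all 30 and all 7. The SEPHS1 transcript was called higher in DSCC1 siRNA under every alternative that was run, and DSCC1 was called under none. DESeq2 gave DSCC1 no adjusted p, and the stricter filter removed it. At this depth DSCC1, with 5 to 56 reads per library, limits its own check. For fold changes of named genes, 1322 values under an alternative stayed on their side of the threshold, 195 lost it, 107 gained it, and none changed sign.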
